A study of Mus musculus with 20 samples.

Results

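The classical complement genes of synapse pruning and their receptors were followed in whole brains of Katnal2-KO and WT mice. The set was a fixed list of 9 gene symbols, C1qa, C1qb, C1qc, C3, C4b, C3ar1, C5ar1, Itgam and Itgb2, and all 9 were found among the 19463 genes measured. RNA came from male mice on the C57BL/6J strain at 3 weeks (P21) and 10 weeks (P70) of age, with 5 mice in each of 4 groups and 20 mice in all. The KO mice were homozygous for a deletion of exon 3 of Katnal2, made from the Katnal2tm1a(EUCOMM)Wtsi allele by crossing to Protamine-Flp mice and treating embryos with the cell-permeable Cre recombinase HTNC. The WT mice carried no Katnal2 deletion. Poly-A RNA of the whole brain was sequenced, so the values average over every brain region and cell type, and a difference in the number of microglia cannot be told apart from a difference in RNA per microglial cell.

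Complement is a protein cascade of innate immunity that the developing brain reuses to remove synapses. C1q binds to a synapse, activates the proteases C1r and C1s, and these cleave C4 and C2 so that C3 is cut and its fragments are deposited on the target. Microglia then recognise deposited C3 fragments through complement receptor 3 (CR3), a pair of integrin chains, and engulf the tagged material, while the small fragments C3a and C5a signal through receptors of their own.

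Of the 9 genes, 3 encode the chains of C1q and lie side by side on the minus strand of chromosome 4 (GRCm38): C1qb at chr4:136880129-136886187, C1qc at chr4:136889804-136893065 and C1qa at chr4:136895917-136898803. The genes of the thioester proteins, C4b at chr17:34728380-34743882 and C3 at chr17:57203970-57228136, encode the components that become covalently attached to a target. C3ar1 at chr6:122847138-122856161 and C5ar1 at chr7:16246743-16259540 encode the receptors for C3a and C5a. Itgam at chr7:128062640-128118491 encodes CD11b, and Itgb2 at chr10:77530252-77565708 encodes CD18, which together form CR3. All 9 are protein-coding genes in GENCODE M21.

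The promoters of the adjacent C1qb and C1qc genes and of Itgam are shown. Any part of these sequences in how the genes varied from mouse to mouse was not tested. Each sequence runs 5′ to 3′ on the strand of the gene, from 250 bases before to 50 bases after the annotated start, and comes from RefSeq on GRCm38.p6, where 6 of the 9 genes had an entry. Capitals mark the PU-box core GAGGAA or its reverse complement TTCCTC, the letters bound by the myeloid factor PU.1.

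C1qb (chr4:136886151-136886450, minus strand): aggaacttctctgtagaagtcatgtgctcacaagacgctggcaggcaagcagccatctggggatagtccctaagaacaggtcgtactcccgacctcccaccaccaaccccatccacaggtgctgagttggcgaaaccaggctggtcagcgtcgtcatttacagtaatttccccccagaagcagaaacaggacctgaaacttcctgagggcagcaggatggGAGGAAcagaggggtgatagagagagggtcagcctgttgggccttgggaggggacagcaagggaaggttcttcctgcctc

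C1qc (chr4:136892865-136893164, minus strand): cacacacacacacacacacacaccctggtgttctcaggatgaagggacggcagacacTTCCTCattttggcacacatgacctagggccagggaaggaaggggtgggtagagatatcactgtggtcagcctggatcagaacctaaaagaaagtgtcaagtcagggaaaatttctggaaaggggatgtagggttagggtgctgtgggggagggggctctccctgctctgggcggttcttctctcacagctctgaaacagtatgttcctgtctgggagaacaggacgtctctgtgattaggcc

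Itgam (chr7:128062390-128062689, plus strand): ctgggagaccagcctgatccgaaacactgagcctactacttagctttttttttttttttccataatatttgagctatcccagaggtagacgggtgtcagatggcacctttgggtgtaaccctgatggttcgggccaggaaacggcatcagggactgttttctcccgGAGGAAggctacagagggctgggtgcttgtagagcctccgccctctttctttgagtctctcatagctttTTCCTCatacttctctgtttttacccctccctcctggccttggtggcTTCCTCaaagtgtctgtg

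The core occurred 1 time in the C1qb promoter, with its first base at -30 from the start, and 1 time in the C1qc promoter at -193. It occurred 3 times in the Itgam promoter, at -84, -15 and 32. The C3, C3ar1 and C5ar1 promoters held 0 copies. Among 32851 RefSeq promoters of this length, 28.3% held the core on either strand, so its presence is common and a match describes letters only. The interferon-gamma activated site TTCNNNGAA was in 0 of the 6 promoters and in 8.30% of all.

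The deposited values are normalised read counts, scaled by the authors over all 20 libraries, and they summed to between 27310523 and 28423042 per mouse. Steps between low values put the depth at about 26200000 to 36400000 reads in P21 KO mice, 27800000 to 35300000 in P21 WT mice, 23400000 to 28400000 in P70 KO mice and 23900000 to 28100000 in P70 WT mice. Katnal2, the check of the genotype, was 89.0 ± 8.72 (SD, n = 5) in P21 KO and 107 ± 7.38 (SD, n = 5) in P21 WT mice, and 105 ± 11.8 (SD, n = 5) against 122 ± 16.4 (SD, n = 5) at P70. Its groups did not overlap at P21 (exact two-sided permutation p = 0.00794, the smallest that 5 against 5 can give) and overlapped at P70 (exact p = 0.0794). A deletion of 1 exon leaves the other exons to be counted, so this level is a limited check of the genotype. In 4 mice short genes were high and long genes low: across 14197 genes, Spearman's rho between exon length and the deviation from the age median was -0.450 in the P70 KO replicate 5, -0.433 in the P70 WT replicate 5, -0.440 in the P21 KO replicate 3 and -0.502 in the P21 WT replicate 3, against -0.230 to 0.342 in the other 16.

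The C1q genes were the most abundant members. Per kilobase of main transcript, the mean level over the 20 mice was 794 ± 177 (SD, n = 20) for C1qb, 684 ± 158 for C1qa and 623 ± 119 for C1qc. C4b followed at 121 ± 33.3, Itgam at 84.3 ± 11.8 and Itgb2 at 31.8 ± 4.90. C3ar1 at 8.57 ± 1.94, C5ar1 at 6.34 ± 2.10 and C3 at 6.30 ± 2.64 were the lowest. The steps from C1q to C4b, from Itgam to Itgb2 and from Itgb2 to C3ar1 held in 20 of 20 mice, C1qb lay above C1qa in 19, and C4b above Itgam in 18. The order of C1qa over C1qc held in 16 mice, that of C3ar1 over C5ar1 in 16, and C5ar1 and C3 could not be ordered, with C5ar1 higher in 11. C3, on which the cascade converges, was at about 17.0 to 63.3 reads per mouse, and C5ar1 at about 8.7 to 25.9 reads was counted with still lower precision.

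**Figure D1:**
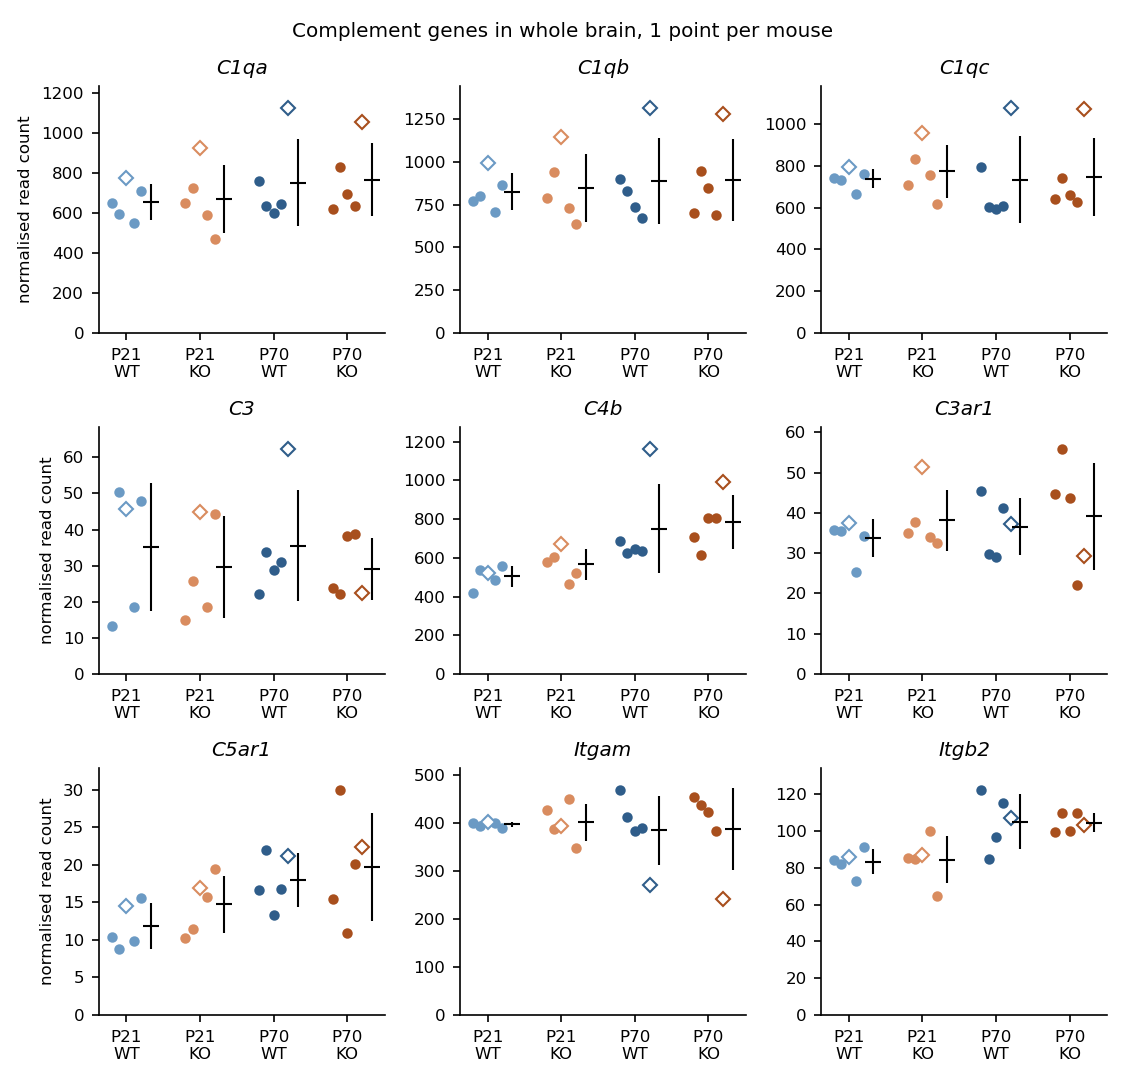
Normalised read counts (vertical axis, from 0) of the 9 genes in P21 and P70 WT and KO mice, 1 point per mouse, with the mean and SD (n = 5) as a cross bar and line, and open diamonds for P21 replicate 3 and P70 replicate 5. KO and WT overlap in every panel and at both ages, while C4b lies higher at P70, where its WT group runs from 625 to 1160 against 420 to 556 at P21.

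Genotype was the first question, since the study asked what loss of Katnal2 changes in the brain. No difference between KO and WT was detected for any of the 9 complement genes at either age. At P21 the number called by limma (adjusted p under 0.05) was 0 of 9, against 0% of the 17610 genes tested, and 0 of 9 had an unadjusted p under 0.05, against 2.44% of all genes. At P70 the count was again 0 of 9, with 0% of 17613 genes called, and 0 of 9 at the unadjusted threshold, against 1.13%. KO and WT mice overlapped for all 9 genes at both ages; non-overlapping groups were seen for 0.46% of all genes at P21 and 0.193% at P70. The median log2 difference of the 9 genes was 0.02 at P21 and 0.04 at P70, beside 0.00 for all genes tested at both ages. At P21, red blood cell markers were lower in KO mice at the unadjusted threshold for 5 of 5 genes, with a median sum of 21342 against 30499 in WT mice, and choroid plexus markers were higher for 4 of 10, with 0 called in either list. Their part in the values below was not tested.

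The C1q genes, which start the classical pathway, had close group means in both genotypes, with wide intervals. C1qa at P21 was 650, 724, 925, 589 and 468 in KO mice and 649, 596, 773, 549 and 708 in WT mice. At P70 it was 621, 831, 694, 634 and 1057 in KO mice and 759, 637, 598, 644 and 1123 in WT mice. At each age 1 mouse of each genotype stood above the rest, replicate 3 at P21 and replicate 5 at P70, and otherwise the groups lay over each other. The log2 difference, KO minus WT, was 0.01 ± 0.15 (SE) at P21 with a 95% confidence interval from -0.32 to 0.33, and 0.04 ± 0.19 at P70 with an interval from -0.37 to 0.45. C1qb differed by 0.02 at P21 and 0.01 at P70, and C1qc by 0.05 and 0.04. These differences were smaller than their standard errors, and their signs turned when single mice were left out.

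C4b, the source of the C4 fragment that follows C1q, was higher on average in KO mice without passing any test. At P21 its values were 578, 605, 672, 463 and 522 in KO mice and 420, 537, 524, 486 and 556 in WT mice. The KO group held both the highest and a low value, and 3 of 5 KO mice lay above every WT mouse. The difference was 0.17 ± 0.10 (SE) on the log2 scale, with an interval from -0.06 to 0.39 and an exact permutation p of 0.198. At P70 the values were 707, 614, 805, 806 and 994 in KO mice, beside 688, 625, 643, 637 and 1160 in the WT group, a log2 difference of 0.09 with an interval from -0.30 to 0.48. Of its 31-base words, 48.3% also occur in C4a, the neighbouring near-copy at chr17:34809092-34823464, so reads can have been divided between them. C4a itself stood at 62.4 ± 12.3 (SD, n = 5) in P21 KO and 62.6 ± 12.1 in P21 WT mice, and C4b was 5.27 to 13.7 times C4a in every mouse.

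C3 had the largest coefficient of variation of the 9 genes over the 20 mice, 41.8%. At P21 its values were 15.0, 25.7, 44.8, 18.6 and 44.4 in KO mice and 13.4, 50.5, 45.6, 18.7 and 47.8 in WT mice. Low and high mice occurred in both genotypes, and the groups overlapped almost fully. These values are in order of replicate, and KO and WT mice of the same number lay close, except replicate 2 at 25.7 and 50.5. Much of the P21 spread was thus shared by same-numbered mice. At P70 this did not hold for replicate 5, at 22.3 in KO and 62.2 in WT. The cause of this likeness was not tested. The log2 difference was -0.19 at P21, with an interval from -1.07 to 0.70, and -0.24 at P70, with an interval from -0.86 to 0.38.

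The receptors gave the same picture with different precision. C3ar1 was 38.2 ± 7.63 (SD, n = 5) in P21 KO and 33.7 ± 4.74 in P21 WT mice, and 39.1 ± 13.4 against 36.6 ± 7.13 at P70. C5ar1 had the largest genotype difference of the 9 genes, at 14.8 ± 3.82 against 11.8 ± 3.06 at P21, which is 0.29 ± 0.26 (SE) on the log2 scale. Its exact permutation p was 0.206 and the interval ran from -0.26 to 0.85.

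Neither chain of CR3 differed detectably between genotypes. Itgam encodes the alpha chain, and in P21 WT mice it was 398, 394, 402, 400 and 389, and in P21 KO mice 426, 386, 394, 449 and 347. The WT values lay inside the range of the KO values, and the log2 difference of 0.01 had an interval from -0.15 to 0.16. Itgb2 differed by 0.01 at P21, with an interval from -0.26 to 0.28. At P70 both chains differed by 0.00, with an interval from -0.41 to 0.41 for Itgam and from -0.27 to 0.27 for Itgb2. The lowest P70 values of Itgam were those of the replicate 5 mice, 241 in KO and 269.8 in WT. Itgam overlaps the annotated model Gm49368, which shares 67.2% of its 31-base words and has no value here.

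Whether the genotype difference changed with age was tested over all 20 mice. The interaction was called for 0 of 9 members, against 0% of 17637 genes, and 0 of 9 had an unadjusted p under 0.05, against 1.68% of all genes. The interaction estimates of the 9 genes ran from -0.22 for C5ar1 to 0.03 for C1qa on the log2 scale.

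**Figure D2:**
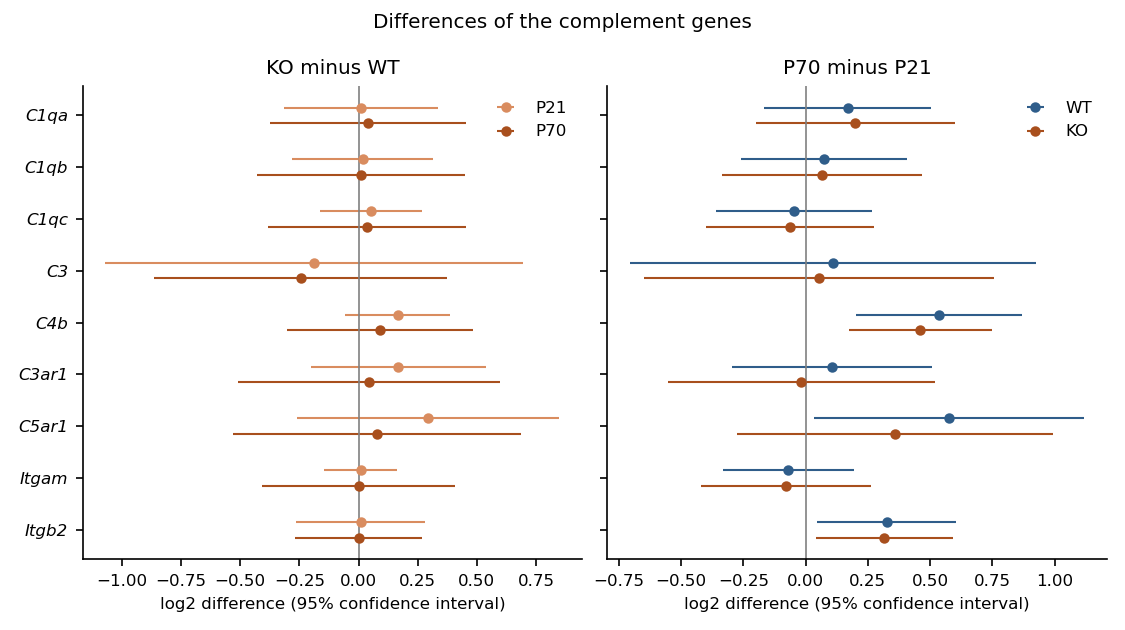
Log2 differences of the 9 genes from limma with 95% confidence intervals, KO minus WT on the left at P21 and P70, and P70 minus P21 on the right in WT and KO mice. Every interval on the left spans 0, and on the right those of C4b and Itgb2 lie above 0 in both genotypes and that of C5ar1 in WT mice.

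The level from P21 to P70 was compared within each genotype. The WT and KO comparisons share no mice. In both, age cannot be told apart from anything else that differed between the P21 and P70 libraries. Depth was such a difference, at about 27800000 to 35300000 reads in P21 WT mice and 23900000 to 28100000 in P70 WT mice. In KO mice it was about 26200000 to 36400000 at P21 and 23400000 to 28400000 at P70. The top of each P70 range was the replicate 5 mouse, and all other P70 libraries lay below the lowest P21 depth. A similar change in both genotypes is therefore not an independent repeat of an age effect. The part of these library differences in the values was not tested. C4b was the member with the clearest change: it rose in WT mice, with no overlap between ages, and stood higher by a similar amount in KO mice, where it narrowly missed the threshold. The estimates for the 3 C1q genes and Itgam were at most 0.20 on the log2 scale in both genotypes, with wide intervals. For C1qa the interval ran from -0.17 to 0.50 in WT and from -0.20 to 0.60 in KO mice. The KO interval includes the C4b estimate of 0.46 in KO mice, so the C1q genes are not shown to be stable with age. In WT mice limma called 1 of 9 members, upwards, against 9.32% of 17630 genes called in either direction and 4.62% called upwards. At the unadjusted threshold 3 of 9 were higher and 0 lower, against 24.5% of genes in either direction and 12.6% upwards. In KO mice 0 of 9 were called, against 8.32% of 17641 genes and 3.78% upwards, and 2 of 9 were higher at the unadjusted threshold, against 22.7% in either direction and 11.1% upwards. The share called was thus near the background in both. The median log2 difference of the 9 genes was 0.11 in WT and 0.07 in KO mice, beside 0.00 and -0.01 for all genes tested.

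C4b in WT mice went from 505 ± 53.8 (SD, n = 5) at P21 to 751 ± 230 (SD, n = 5) at P70. The lowest P70 WT value, 625, was above the highest P21 WT value, 556, and 1 of the 9 members was free of overlap in this way, against 10.8% of all genes. The log2 difference was 0.53 ± 0.15 (SE), with an interval from 0.20 to 0.87, a limma adjusted p of 0.0453 and an exact permutation p of 0.00794. Replicate 5, at 1160, carried much of the P70 spread; without it the mean was 648 ± 27.2 (SD, n = 4), still above every P21 mouse, and the difference was 0.37. Without the trend in the variance, with the microglial markers as a covariate, or without any 1 of the other 9 mice, the adjusted p was above 0.05.

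In KO mice C4b went from 568 ± 79.9 (SD, n = 5) to 785 ± 141 (SD, n = 5). The highest P21 KO mouse, replicate 3 at 672, lay above the lowest P70 KO mouse at 614, so the ages overlapped. In KO mice 0 of 9 members were free of overlap, against 10.9% of all genes. The log2 difference was 0.46 ± 0.13 (SE), with an interval from 0.17 to 0.75, a limma adjusted p of 0.0523 and an exact permutation p of 0.0159. In 8 of 22 alternative analyses it passed the threshold, and in WT mice in 11 of 22. Across all of them the difference lay between 0.37 and 0.54 in KO mice and between 0.37 and 0.59 in WT mice.

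Itgb2, the CD18 chain, was higher at P70 in both genotypes but did not pass adjustment. In WT mice it was 84.2, 82.0, 86.1, 72.7 and 91.5 at P21 and 122, 84.8, 96.7, 115 and 107 at P70. In KO mice it was 85.4, 84.9, 87.0, 100 and 64.6 at P21 and 99.2, 110, 100, 110 and 103 at P70. A single WT mouse at P70, replicate 2, fell within the P21 range, and a single KO mouse at P21, replicate 4, within the P70 range. The log2 difference was 0.33 in WT and 0.32 in KO mice, with limma adjusted p of 0.137 and 0.154 and an exact permutation p of 0.0238 in each. Its partner Itgam went from 397 ± 4.92 (SD, n = 5) to 384 ± 72.0 in WT and from 401 ± 38.9 to 387 ± 85.7 in KO mice.

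C5ar1 was 11.8 ± 3.06 (SD, n = 5) at P21 and 18.0 ± 3.59 at P70 in WT mice, a log2 difference of 0.58 with a limma adjusted p of 0.177 and an exact permutation p of 0.0397. In KO mice the difference was 0.36, with an interval from -0.28 to 0.99. C3ar1 differed by 0.11 in WT and -0.02 in KO mice, and C3 by 0.11 and 0.05, each with an interval that spanned 0.

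Cell type markers moved with age in the same libraries. The sum of 15 homeostatic microglia markers, none of them at 0 and none a member, ran from 8729 to 9670 in P21 WT and 8300 to 9567 in P70 WT mice, and from 7790 to 10987 in P21 KO and 8622 to 10181 in P70 KO mice. Of these markers 0 rose and 1 fell with age in WT mice, and 0 changed in KO mice. Over all genes 4.7% fell in WT and 4.53% in KO mice, and 4.62% and 3.78% rose. Border macrophage markers fell for 2 of 7 tested in WT and 3 of 7 in KO mice, and oligodendrocyte markers for 9 of 10 in both. Activated microglia markers fell for 2 of 8 in WT and 1 of 8 in KO mice, and endothelial markers for 1 of 8 and 2 of 8. Meningeal markers rose for 1 and fell for 3 of 10 in both. Choroid plexus markers rose for 2 of 10 in WT and 0 of 10 in KO mice, with positive estimates for 9 of 10 in both. Red blood cell markers fell for 5 of 5 in WT and 4 of 5 in KO mice. Neutrophil and monocyte markers were near the floor, with 5 of 10 in the table and sums of 57.7 to 133. The part of these shifts in the C4b, Itgb2 and C5ar1 values was not tested. With the microglial mean as a covariate the C4b difference was 0.56 in WT and 0.48 in KO mice. It was then no longer called in WT mice and was called in KO mice (limma adjusted p = 0.0752 and 0.0493). The covariate, the mean log2 of the markers, was 8.47 at P21 and 8.38 at P70 in WT, and 8.51 and 8.48 in KO mice. This fit cannot decide the part of microglia, because the covariate and C4b moved in opposite directions with age.

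The 3 C1q genes rose and fell together from mouse to mouse. The ratio of C1qa to C1qb ran from 0.734 to 0.963 over the 20 mice, a coefficient of variation of 6.95%, where C1qa alone had 23.1% and C1qb 22.3%. After subtraction of group means, Pearson's r across the 20 mice was 0.96 for C1qa with C1qb, 0.95 for C1qa with C1qc and 0.94 for C1qb with C1qc. C4b had r of 0.71 to 0.75 with the 3 C1q genes, and Itgam had -0.51 to -0.61. Among 14198 genes outside the list, the 5 closest to the C1q mean reached r of 0.95 to 0.96, so such values are not particular to C1q. No r between the C1q genes was computed without the P70 replicate 5 mice. All these r values are descriptions, since the points share library depth and composition. The ratio of C1qa to C1qc was lower at P21, at 0.759 to 0.973, than at P70, at 0.953 to 1.12.

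**Figure D3:**
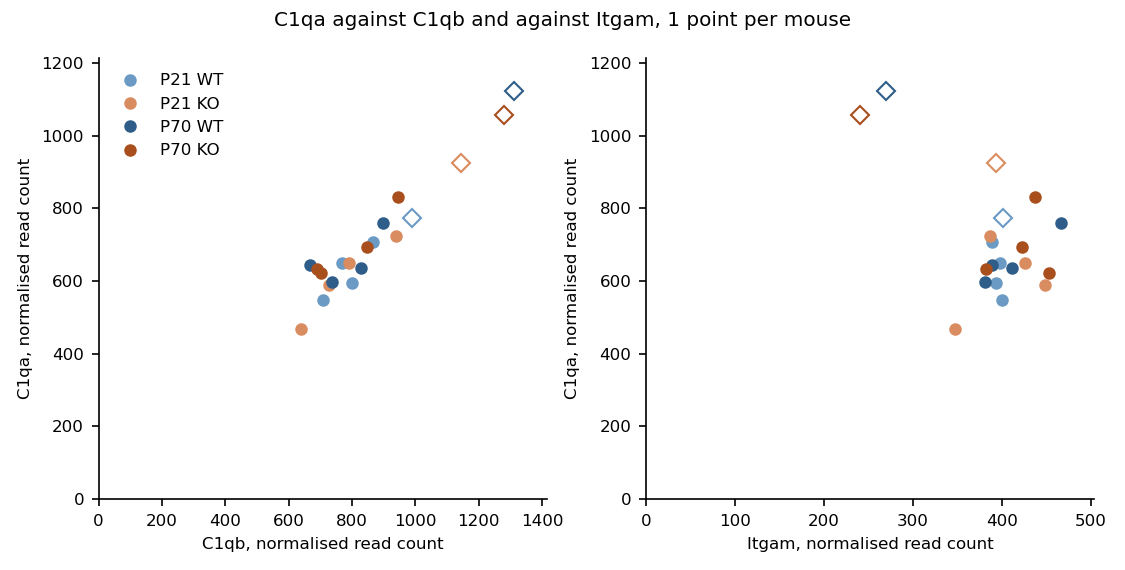
C1qa (vertical axis) against C1qb on the left and Itgam on the right, in normalised read counts with both axes from 0 and 1 point per mouse, with open diamonds for P21 replicate 3 and P70 replicate 5. C1qa and C1qb lie along a line, while the P70 replicate 5 mice combine the highest C1qa values, 1057 and 1123, with the lowest Itgam values, 241 and 270.

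The mice that set the top of the C1q range were those in which short genes were high. In the P70 replicate 5 mice C1qa was 1057 in KO and 1123 in WT, against 598 to 831 in the other 8 P70 mice. Without them C1qa at P70 was 695 ± 95.9 (SD, n = 4) in KO and 659 ± 69.2 in WT mice. Itgam went the other way, at 241 in KO and 270 in WT, against 382 to 467 in the rest, so that the ratio of Itgam to Itgb2 was 2.34 and 2.52, against 3.37 or more in the other 18 mice. The median shift of the shortest quintile of genes, up to 2580 bases of exon, was 0.29 in the KO and 0.25 in the WT mouse on the log2 scale, and that of the longest quintile, from 7780 bases, was -0.32 and -0.23. C1qa (1040 bases) deviated by 0.66 and 0.75 and Itgam (5024 bases) by -0.73 and -0.57, while C4b (5695 bases) deviated by 0.51 and 0.73 in the direction of short genes. The sum of microglial markers was 9100 and 9023 in these mice, within the range of the others. Of the 15 markers 6 lay above the P70 median in both mice and 6 below it in both, and of the 9 members 5 lay above and 2 below. Across the 15 markers, rho between exon length and the deviation was -0.09 in the KO and -0.30 in the WT mouse. The same mice had the deepest P70 libraries, at about 28400000 reads in KO and 28100000 in WT. The part of gene length and of depth in the C1q and Itgam values was not tested.

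**Figure D4:**
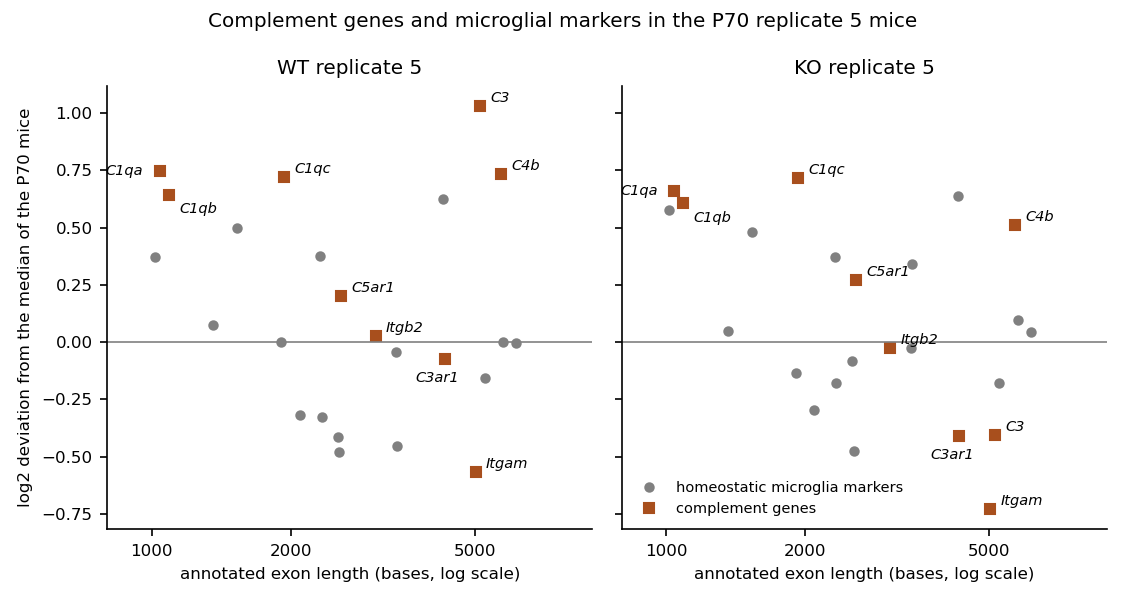
Log2 deviation from the median of the 10 P70 mice (vertical axis) against annotated exon length in bases (log axis) in P70 WT replicate 5 and KO replicate 5, with squares for the 9 complement genes and circles for the 15 homeostatic microglia markers. The C1q genes lie 0.61 to 0.75 above 0 and Itgam 0.57 to 0.73 below it in both mice, with the markers on both sides.

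Genes that varied most like each component were ranked by Pearson's r of the same residuals over the 20 mice, among 14198 genes. For the mean of the C1q genes they were Ctdsp1 (r = 0.96), Ctsd (0.96), Selenow (0.96), Ftl1 (0.96) and Nxn (0.95). Without the P70 replicate 5 mice the same r values were between 0.91 and 0.94. The exon lengths of these genes, in the order given, were 3334, 2351, 736, 1340 and 3239 bases. For C4b they were Dao (0.90), Rnh1 (0.89), Jmjd8 (0.89), Acaa2 (0.88) and Angptl6 (0.88), falling to between 0.73 and 0.80 without those mice. For C3 they were Nudt7 (0.73), H2-T23 (0.68), Parp4 (0.66), Fbxo4 (0.66) and Uxt (0.66), lower than for the others.

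The remaining complement system was read from 60 listed genes, of which 47 were in the table. Between genotypes 0 of 44 were called at P21 and 0 of 43 at P70, with 0 and 1 at the unadjusted threshold. Itgax, the alpha chain of complement receptor 4, had too low a mean for these fits and is named here after its values were seen. At P70 it was 3.63, 2.35, 1.56, 0 and 1.57 in WT mice and 12.9, 7.52, 5.42, 3.93 and 18.7 in KO mice, so that the groups did not overlap. This was the case for 1 of the 47 genes, and the exact two-sided permutation p of 0.00794, the smallest possible, was not adjusted. The share over all genes tested, 0.193%, covers only genes averaging 10 or more, which leaves out Itgax. No such share was computed for genes below that filter. At P21 Itgax was 5.61 ± 2.09 (SD, n = 5) in WT and 10.5 ± 4.54 in KO mice, with overlap (exact permutation p = 0.0238). With no filter on low values the log2 differences were 0.81 at P21 and 1.90 at P70, and neither was called among 19460 genes (limma adjusted p = 0.999863 and 0.999947, unadjusted p = 0.0384 and 0.00309). The P70 values stand for about 0 to 3.13 reads per WT mouse and 3.35 to 19.2 per KO mouse.

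With age, 5 of the other complement genes rose and 1 fell of 43 in WT mice, against 4.62% and 4.7% of all genes, and 2 rose and 1 fell of 44 in KO mice, against 3.78% and 4.53%. C1ra, the protease that C1q activates, rose from 33.9 ± 7.91 (SD, n = 5) to 61.6 ± 11.9 in WT and from 40.0 ± 9.28 to 71.6 ± 12.2 in KO mice, by 0.85 and 0.83 on the log2 scale (limma adjusted p = 0.0146 and 0.0145). Masp1, a protease of the lectin pathway, was the gene that fell, from 462 ± 33.7 (SD, n = 5) to 305 ± 18.0 in WT and from 482 ± 44.6 to 315 ± 18.3 in KO mice, with no overlap in either. C4a rose with age in WT mice by 0.64 (limma adjusted p = 0.0331), and in KO mice its difference was 0.50 (adjusted p = 0.184), beside the C4b values above. Outside the cascade, Sirpa, which encodes a receptor for Cd47, rose by 0.23 in WT and 0.28 in KO mice (limma adjusted p = 0.0232 and 0.00629). The cell type that carried the Sirpa values was not tested. Cd47 differed by 0.21 and 0.15 without being called. Megf10, a phagocytic receptor of astrocytes that binds C1q, rose by 0.40 in WT mice, and Sez6l2, a neuronal inhibitor of complement, by 0.34, with 0.27 and 0.25 in KO mice that were not called. Cd93, listed with Megf10 among the other receptors, went the other way, by -0.45 in WT and -0.38 in KO mice, and was not called. Cfp, which encodes properdin, differed by 0.45 and 0.50, and the membrane regulator Cd46 by -0.31 and -0.33, and neither passed adjustment. Hc, which encodes C5, differed by -1.46 in KO mice and did not pass adjustment. It was 19.3 ± 9.05 (SD, n = 5) at P21 and 6.63 ± 4.42 at P70, and so passed the filter only through its P21 values. In WT mice Hc was below the filter, at 14.1 ± 6.75 at P21 and 5.14 ± 3.12 at P70.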

How the data were processed

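Whole-brain RNA of 20 male mice in 4 groups of 5 was measured. Reads were quantified by the authors in Salmon against GRCm38, corrected for GC bias, brought into R through tximport and scaled in DESeq2 (Salmon 1.1.0, R 3.6.2 and DESeq2 1.26.0 per the submitters' processing notes). The deposited signal values are the resulting scaled counts. Of 19463 gene IDs, 19447 matched a symbol in GENCODE M21. Whole reads could not be recovered, because gene-specific factors enter the values, so no count test was used. Limma 3.58.1 (R 4.3.3; lmFit and eBayes with trend) took log2(value + 1) of genes averaging 10 or more, in the 10 mice of each comparison or, for the interaction, all 20. Calls had a Benjamini-Hochberg adjusted p under 0.05 across all genes. Fold changes on this scale understate those of low genes. Exact two-sided permutation tests used all 252 regroupings of 5 against 5 and were not adjusted over the 36 tests of members. The labels do not say that same-group mice came from separate litters.

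Depth was estimated from steps between low values; on 11 simulated libraries the step was within 0.5% of the truth. On values simulated with each gene's spread, limma recovered 86% of 200 genes changed 2-fold and 28.5% of those changed 1.25-fold at P21 (17610 genes), and 65% and 3.5% at P70 (17613 genes).

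The 9 genes, the other gene lists and the tests were chosen with earlier results of these data known. Besides the members and Katnal2, the genes named were the 2 with the smallest limma p of each list of other complement genes, C4a, and the 5 most like C1q, C3 and C4b, of which the text gives those it describes. Shared sequence was measured as 31-base words of GENCODE M21 transcripts. Python 3.11.15 (pandas 2.3.3) was used for summaries.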

Additional observations from a re-analysis of the deposited data

Results flagged for a closer look

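Within each group of 5 mice the highest and lowest value of each of the 9 genes was compared with the other 4, which made 36 groups of values. A value was singled out when its gap to the nearest mouse exceeded 0.71 of the whole range (Dixon's test at 95%), and chance alone does this for about 1 group in 20. This happened in 5 groups.

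The P70 replicate 5 mice gave 3 of the 5. C1qc was 1071 in the KO mouse, against 626 to 741 in the other P70 KO mice. C4b was 1160 in the WT mouse, against 625 to 688, and C3 was 62.2 in the same mouse, against 22.2 to 33.7. C3ar1 gave the other 2, at 51.4 in P21 KO replicate 3, against 32.6 to 37.8, and at 25.4 in P21 WT replicate 4, against 34.3 to 37.5. The first of these mice is also one in which short genes were high.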

How the results depend on the processing

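Between genotypes 0 of the 9 genes were called under every alternative run, at P21, at P70 and in the interaction. The C4b call with age in WT mice was lost (0 members called) by limma without the trend, with the microglial covariate and without any 1 of 9 of the 10 mice, so that leaving out a mouse gave 0 to 1 members called, with 1 when P70 WT replicate 5 was left out. In KO mice C4b was called (1 member) with quantile normalization, a mean of at least 50, the microglial covariate, the length correction, without the P70 replicate 5 mouse and without P21 replicate 3 and P70 replicate 5 together, and single mice left out gave 0 to 1. The cause was not tested. Over all genes, the WT count of 1643 became 3000 without P70 replicate 5, 2850 without it and P21 replicate 3, and 912 to 3000 without single mice, with the 912 from leaving out P21 WT replicate 4. The KO count of 1467 became 3759 without P70 replicate 5, 3811 without it and P21 replicate 3, and 896 to 3759 without single mice, with 943, 957 and 896 from leaving out P21 KO replicates 1, 2 and 4. Between genotypes all-gene counts of 0 became 1 without both P21 replicate 3 mice and 1 without both P70 replicate 5 mice, and 0 to 1 at P21 without single mice. With the replicate block the KO count with age became 913, and the counts of members called did not change. Same-numbered mice are different animals, and the labels do not pair them, so the main fits did not either. They correlated at -0.0091 to 0.26 at P21 and 0.075 to 0.71 at P70. Of the KO mice, 3 of 5 at P21 and 4 of 5 at P70 correlated best with the WT mouse of their own number. The P70 KO replicate 5 mouse did so at 0.71, against at most -0.15 with other numbers. These are hints from the data and not from the design. Whether same-numbered libraries were handled together is not in the labels and was not tested. The length correction and the fits without P21 replicate 3, alone or with P70 replicate 5, and the interaction without these pairs were chosen after seeing the data.

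Of 798 single-gene values under the alternatives, 683 kept direction and call, 9 C4b values in KO mice gained the call, 11 in WT mice lost it, and 95 changed sign (within 1 genotype the fit without P70 replicate 5 is counted under both of its settings). All 95 were of differences that no analysis called (unadjusted limma p of 0.344 or more), so these genes have no established direction. With quantile normalization, at P21 Itgb2 was -0.0085, and at P70 Itgb2 was -0.0069, and with age in KO C3ar1 was 0.020. With the microglial covariate, at P21 C1qa was -0.053, C1qb was -0.037, Itgb2 was -0.012, and at P70 C1qa was -0.086, C1qb was -0.13, C1qc was -0.095, C3ar1 was -0.15, Itgam was -0.052, Itgb2 was -0.061, and with age in WT C1qc was 0.065, and with age in KO C3ar1 was 0.034. Without both P21 replicate 3 mice, at P21 C1qa was -0.053, C1qb was -0.030, C1qc was -0.00039. With the length correction, at P21 C1qa was -0.00033, and at P70 C1qb was -0.023, Itgb2 was -0.0083. With a pseudocount of 5, at P70 Itgb2 was -9.6e-05. Without the P70 replicate 5 mice, at P70 C3 was 0.054, and with age in WT C1qb was -0.078, C3 was -0.11, Itgam was 0.052, and with age in KO C1qb was -0.073, C3ar1 was 0.067, Itgam was 0.084. Without P21 replicate 3 and P70 replicate 5, with age in WT C1qb was -0.011, Itgam was 0.056, and with age in KO C3ar1 was 0.18, Itgam was 0.079. Leaving out single mice also turned signs. For KO versus WT at P21 they ran for C3 from -0.47 to 0.017, Itgam from -0.034 to 0.059, C1qa from -0.11 to 0.13, C1qb from -0.098 to 0.11, C1qc from -0.027 to 0.13, Itgb2 from -0.055 to 0.10. For KO versus WT at P70 they ran for C3ar1 from -0.098 to 0.23, Itgam from -0.12 to 0.16, C1qb from -0.13 to 0.16, C5ar1 from -0.086 to 0.26, Itgb2 from -0.074 to 0.056, C1qa from -0.083 to 0.19, C1qc from -0.10 to 0.18. With age in WT mice they ran for C3 from -0.18 to 0.28, C1qc from -0.19 to 0.020, C1qb from -0.078 to 0.16, Itgam from -0.15 to 0.052. With age in KO mice they ran for C3 from -0.15 to 0.23, C1qc from -0.20 to 0.016, C3ar1 from -0.16 to 0.16, C1qb from -0.073 to 0.18, Itgam from -0.14 to 0.084.

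Depth was lowest for C5ar1, C3 and C3ar1, and counting error was not separated from the spread between mice. A missing call does not show that a gene did not differ, and the intervals give the sizes of difference that these mice leave possible.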
